A study of Drosophila melanogaster with 6 samples.

Results

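The mitochondrial ribosomal proteins of the Drosophila larval brain were followed across 6 poly(A) RNA-seq libraries. Members were all genes in the count table whose FlyBase symbol begins with mRpL (large subunit) or mRpS (small subunit) and a number. Of 73 such symbols in the annotation, 71 had a row among the 14150 genes of the table, 46 of the large and 25 of the small subunit. mRpL53 and mRpS5 were not analysed here. All 71 members passed the low-count filter, which kept 10074 genes for testing, with 76 to 1890 counts per member and library and a median of 665.

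The CIN libraries came from w; worniu-gal4, UAS-bub3-i larvae, and the ctrl libraries from w; worniu-gal4, UAS-gfp-i larvae. CIN carries RNA interference against Bub3, a spindle checkpoint protein that delays anaphase until chromosomes are attached, and ctrl carries RNA interference against GFP. Both groups shared the w background and the worniu-gal4 driver, whose expression marks neuroblasts, the stem cells of the brain, while whole brains were sequenced. The study gives all animals as female late L3 larvae dissected 96 h after egg laying at 29 °C, with 3 brains pooled per library and 1 library of each genotype in batches 4, 5 and 6.

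The mitochondrial ribosome translates the few respiratory chain subunits that the mitochondrial genome still encodes. Its rRNAs are transcribed inside the organelle, whereas its proteins are encoded in the nucleus, made in the cytosol and imported. The large subunit forms the peptide bond and the small subunit decodes the message. Some proteins descend from the bacterial ribosome and keep its numbering, while most of those with higher numbers were added during mitochondrial evolution. By number, the members comprised 28 large-subunit proteins up to 36 and 18 above it, and 13 small-subunit proteins up to 21 and 12 above it.

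CIN 5 stood apart from its label in RNAs of dosage compensation, the process by which male flies raise expression of their single X chromosome. roX2, a noncoding RNA of the male complex, had 0.0797, 9.62 and 0.220 CPM in CIN 4, 5 and 6, against 0, 0.0811 and 0.156 CPM in ctrl 4, 5 and 6. roX1, its partner RNA, had 153, 965 and 213 CPM in CIN, against 452, 285 and 276 CPM in ctrl. msl-2, which encodes the male-limiting protein of the complex, had 39.3, 58.0 and 36.7 CPM in CIN, against 40.2, 35.7 and 39.6 CPM in ctrl. CIN 5 was the highest library for all 3. Of these, the roX2 value goes against an all-female pool, though roX2 did not pass the low-count filter. roX1 and msl-2 were well above 0 in every other library too. The main results are therefore also given without CIN 5 and without both libraries of batch 5.

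Libraries held between 24668180 and 26292208 counts. Bub3 reached 80.2, 96.5 and 91.5 CPM (counts scaled to the normalised library size) in CIN 4, 5 and 6, against 149, 123 and 144 CPM in ctrl 4, 5 and 6. Its log2 fold change was −0.63 ± 0.13 (SE), with an adjusted p of 0.333 in edgeR (quasi-likelihood F test, Benjamini-Hochberg over all tested genes) and 0.00364 in DESeq2. No listed marker was at 0 in all libraries of a group. The 6 neuron markers summed to 1674 to 2318 CPM in CIN and 1915 to 2080 CPM in ctrl, and the 5 glia markers to 785 to 1429 CPM and 955 to 1088 CPM. Summed neuroblast markers (5 genes) ran between 185 and 342 CPM in CIN and between 351 and 499 CPM in ctrl, without overlap. All 5 had negative log2 fold changes, but 0 of the 5 had groups apart as single genes. The sums of the 7 fat body markers (169 to 211 CPM in CIN, 217 to 699 CPM in ctrl) and the 6 salivary gland markers (2.57 to 18.6 CPM in CIN, 20.4 to 81.5 CPM in ctrl) were also separated. As single genes, 1 of the 7 and 2 of the 6 had all CIN libraries below all ctrl libraries, against 8.18% of all tested genes. The 1 fat body gene was apolpp, at 118, 144 and 173 CPM in CIN 4, 5 and 6, against 213, 224 and 189 CPM in ctrl. It made up most of the fat body sum in every library but ctrl 4, which was the highest library for both sums. The 8 ring gland markers spread widely, at 219 to 4284 CPM in CIN with CIN 5 lowest and at 155 to 3231 CPM in ctrl with ctrl 4 lowest, while jhamt was at 0 in at least 1 library. The 7 hemocyte markers summed to 107 to 482 CPM in CIN and 102 to 557 CPM in ctrl, and the 7 muscle markers to 114 to 252 CPM and 88.6 to 157 CPM. The part of these other tissues, of the neuroblast markers and of the dosage compensation RNAs in the results below was not tested. In bulk brains, fewer cells of a type and less RNA per cell cannot be told apart.

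Nearly the whole family lay lower in CIN than in ctrl, by a small amount per gene. Summed over the 71 members, transcripts reached 2106, 1726 and 2002 CPM in CIN 4, 5 and 6, against 2261, 2374 and 2227 CPM in ctrl 4, 5 and 6. The groups did not overlap, and the mean sum was 1945 ± 196 CPM in CIN and 2287 ± 77.3 CPM in ctrl (SD, n = 3 each), a difference of −15.0%. Without CIN 5 the difference was −11.5% for the large and −8.27% for the small subunit, and without both CIN 5 and ctrl 5 it was −9.43% for the large and −6.10% for the small subunit. The members took 0.206%, 0.177% and 0.208% of all raw counts in CIN 4, 5 and 6, against 0.228%, 0.223% and 0.226% in ctrl.

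Of the 71 members, 70 had a negative log2 fold change, against 48.7% of all tested genes, and mRpL10 was the exception. Their median log2 fold change was −0.24, against 0.01 over all tested genes. No single member was called. The quasi-likelihood F test of edgeR, Benjamini-Hochberg adjusted, called 0 members, with 0.549 as the lowest adjusted p, and 10 of all tested genes (0.0993%). With the batch number as a replicate block it called 0 of all tested genes. DESeq2 likewise called 0 members, with 0.192 as the lowest adjusted p, while it called 0.546% of all tested genes lower in CIN. At an unadjusted p under 0.05, 18 members (25.4%) were lower and 0 were higher in CIN, where 3.76% of all tested genes were lower and 4.13% were higher. All CIN libraries lay below all ctrl libraries in 28 members (39.4%), against 8.18% of all tested genes, and in no member did they lie above. CIN was lower in all 3 batches in 42 members (59.2%), against 18.5% of all tested genes.

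Among single libraries left out, the count of members lower at an unadjusted p under 0.05 in edgeR fell most without CIN 5. It was 6 without ctrl 5, 9 without ctrl 6, 10 without CIN 6, 15 without ctrl 4 and 21 without CIN 4. The shares over all tested genes ran from 2.65% to 4.34% in these fits. Each such fit also has 1 library fewer, and the part of CIN 5 itself was not tested. Without CIN 5, 3 members were at an unadjusted p under 0.05 and lower in CIN, where 2.92% of all tested genes were, and 62 of 71 had a negative log2 fold change. Without both CIN 5 and ctrl 5, 0 members were at that p in edgeR, where 2.2% of all tested genes were, and 62 were negative. CIN 4 and CIN 6 both lay below all ctrl libraries in 29 members (40.8%), against 12.4% of all tested genes. CIN was lower in both batch 4 and batch 6 in 44 members (62.0%), against 30.6% of all tested genes. For the 12 members with the lowest p-values, the log2 fold changes ran from −0.36 to −0.21 without both libraries of batch 5. These 12 were chosen with the same batch 4 and 6 libraries, so their negative values are no independent support.

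**Figure D1:**
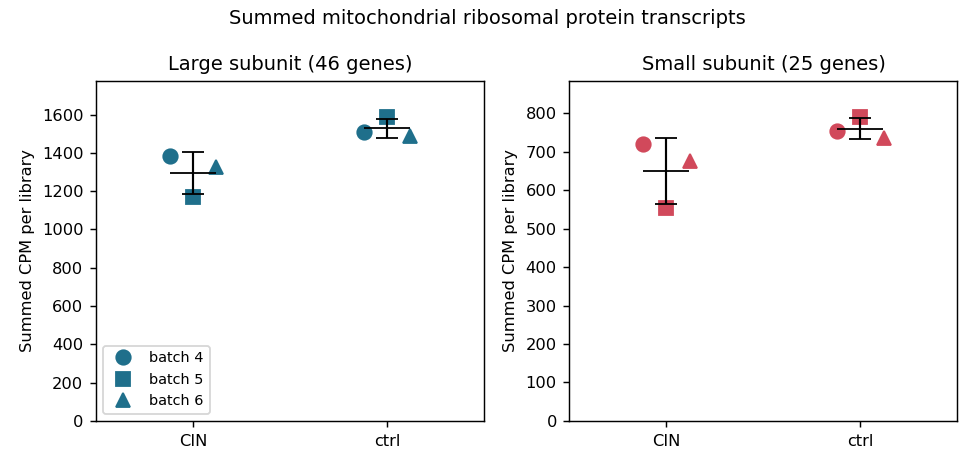
Summed CPM of the large-subunit and small-subunit genes in each library, by genotype (CIN left, ctrl right), with marker shapes for batches and black bars for the mean ± SD of 3 libraries. Every CIN library lies below every ctrl library in both panels, and CIN 5 is the lowest, at 1172 CPM for the large and 555 CPM for the small subunit.

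Per kilobase of merged exon, most members stood at similar levels. The mean level of a member ran from 7.80 to 77.9 CPM per kb in CIN (median 30.8) and from 8.73 to 95.8 CPM per kb in ctrl (median 36.8). In CIN 64 of the 71 members, and in ctrl 59, lay between 20 and 50 CPM per kb. The median over all tested genes was 13.0 CPM per kb in CIN and 12.9 CPM per kb in ctrl. The subunits were alike in this measure of level, with medians of 30.5 CPM per kb in CIN and 37.1 CPM per kb in ctrl for the large subunit and 31.7 CPM per kb in CIN and 34.97 CPM per kb in ctrl for the small one.

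The highest levels per length belonged to mRpL30 and mRpL12. mRpL12, the counterpart of the bacterial L7/L12 stalk protein that recruits translation factors, averaged 75.7 CPM per kb in CIN and 79.5 CPM per kb in ctrl. It is present in several copies per ribosome in bacteria, unlike most ribosomal proteins. The lowest member was mRpS24, at 7.80 CPM per kb in CIN and 8.73 CPM per kb in ctrl, and the next was mRpL21, at 12.6 CPM per kb in CIN and 14.8 CPM per kb in ctrl. Of the exon bases of mRpS24, 55.3% are shared with TBC1d7 on the opposite strand, so reads of both cannot be told apart in these unstranded libraries.

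Among the 28 large-subunit proteins with bacterial numbers, 27 had a negative log2 fold change, with a median of −0.23. Of the 28, 9 (32.1%) were lower in CIN at an unadjusted p under 0.05, 13 (46.4%) had no overlap between the groups and 15 (53.6%) were lower in all 3 batches, against 3.76%, 8.18% and 18.5% of all tested genes. mRpL2, whose bacterial counterpart lies beside the peptidyl transferase centre, had 43.4, 38.1 and 46.2 CPM in CIN 4, 5 and 6, against 50.3, 56.96 and 53.8 CPM in ctrl 4, 5 and 6. It averaged 42.6 ± 4.13 CPM in CIN and 53.7 ± 3.31 CPM in ctrl (SD, n = 3 each), and its log2 fold change was −0.33 ± 0.12 (SE). The gene lies at 3L:11120847-11122041 of the BDGP6 assembly.

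mRpL1, the counterpart of the protein of the mobile L1 stalk by which spent tRNA leaves, had 32.4, 26.97 and 32.6 CPM in CIN 4, 5 and 6, against 44.6, 37.7 and 37.2 CPM in ctrl. The groups did not overlap, and ctrl 4 was the highest library. The log2 fold change was −0.38 ± 0.13.

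mRpL30, the counterpart of a bacterial large-subunit protein, lies at X:4647871-4648646 and had 53.97, 51.04 and 57.7 CPM in CIN 4, 5 and 6, against 63.6, 68.3 and 68.1 CPM in ctrl. The libraries of each group were close together, with means of 54.2 ± 3.31 CPM in CIN and 66.7 ± 2.65 CPM in ctrl (SD). Its SE was among the smallest of the family (log2 fold change −0.30 ± 0.10, edgeR adjusted p 0.603).

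mRpL36, the counterpart of a small protein of the bacterial large subunit, had 20.3, 16.4 and 19.3 CPM in CIN 4, 5 and 6, against 25.05, 27.2 and 22.8 CPM in ctrl (log2 fold change −0.42 ± 0.14). mRpL35 had 16.3, 15.6 and 17.98 CPM in CIN, against 21.1, 20.4 and 22.7 CPM in ctrl (−0.36 ± 0.13). mRpL17, whose bacterial counterpart sits near the opening of the exit tunnel, had 20.7, 18.2 and 20.6 CPM in CIN, against 23.6, 24.99 and 26.2 CPM in ctrl (−0.33 ± 0.13). In all 3 genes the highest CIN library stayed below the lowest ctrl library.

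mRpL34 had the most negative log2 fold change of the 71 members, −0.57 ± 0.23 (edgeR adjusted p 0.605). It had 9.33, 8.39 and 7.41 CPM in CIN 4, 5 and 6, against 11.1, 15.9 and 10.4 CPM in ctrl 4, 5 and 6. It is also the shortest member, with 327 bases of merged exon, and ctrl 5 stood well above the other ctrl libraries.

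Of the 4 members with the highest log2 fold changes, 3 belong to this class. mRpL10, the anchor of the mRpL12 stalk, had 20.8, 22.6 and 20.4 CPM in CIN 4, 5 and 6, against 17.3, 20.5 and 20.1 CPM in ctrl. It was higher in CIN in every batch, though the groups overlapped and its log2 fold change of 0.14 ± 0.13 was about 1 SE from 0 (edgeR adjusted p 0.798). mRpL12 itself had 65.3, 43.5 and 58.8 CPM in CIN, against 63.1, 55.3 and 57.5 CPM in ctrl (−0.07 ± 0.17), and its sign turned to 0.08 without CIN 5. Neither stalk gene was called (edgeR adjusted p 0.798 for mRpL10 and 0.927 for mRpL12).

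mRpL3, another protein near the catalytic centre, had 50.3, 40.6 and 46.8 CPM in CIN 4, 5 and 6, against 44.8, 47.7 and 47.5 CPM in ctrl (−0.02 ± 0.12). mRpL18 had 14.6, 16.1 and 15.8 CPM in CIN, against 14.2, 17.97 and 15.8 CPM in ctrl (−0.04 ± 0.15). Both lay at the level of ctrl within their error. mRpL21, the lowest of its class per length, had 25.7, 15.9 and 22.4 CPM in CIN, against 25.3, 25.9 and 24.2 CPM in ctrl, and only CIN 5 was far from the rest.

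All 18 large-subunit proteins with higher numbers had a negative log2 fold change, with a median of −0.27. Of the 18, 7 (38.9%) were lower in CIN at an unadjusted p under 0.05, 10 (55.6%) had no overlap between the groups and 15 (83.3%) were lower in all 3 batches, against 3.76%, 8.18% and 18.5% of all tested genes. mRpL42 (2R:10066650-10067242) showed the tightest ctrl group of the members with low p-values. It had 20.1, 17.3 and 17.3 CPM in CIN 4, 5 and 6, against 24.5, 24.5 and 23.6 CPM in ctrl 4, 5 and 6. The means were 18.3 ± 1.63 CPM in CIN and 24.2 ± 0.5003 CPM in ctrl (SD, n = 3 each), with a log2 fold change of −0.41 ± 0.13 and an edgeR adjusted p of 0.578.

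mRpL48 had 20.7, 18.1 and 20.2 CPM in CIN 4, 5 and 6, against 25.2, 32.4 and 24.6 CPM in ctrl (−0.48 ± 0.15), and 20.8% of its exon bases are shared with frtz. mRpL41 had 16.9, 14.97 and 17.3 CPM in CIN, against 19.98, 27.7 and 22.2 CPM in ctrl (−0.51 ± 0.17). mRpL51 had 16.02, 15.8 and 18.7 CPM in CIN, against 20.2, 27.9 and 21.3 CPM in ctrl (−0.46 ± 0.17). In these 3 genes ctrl 5 was the highest library and the groups did not overlap.

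The 2 members of this class with the most negative values had 1 outlying ctrl library. mRpL43 had 19.8, 21.6 and 21.7 CPM in CIN 4, 5 and 6, against 26.5, 41.5 and 24.6 CPM in ctrl (−0.55 ± 0.21). mRpL40 had 21.7, 16.5 and 19.6 CPM in CIN, against 24.73, 35.3 and 22.4 CPM in ctrl (−0.51 ± 0.21). In both, ctrl 5 was far above ctrl 4 and ctrl 6, and the groups did not overlap.

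The members of this class with the highest level per length were mRpL49 and mRpL44. mRpL44, which carries a fold related to RNase III, had 37.5, 45.4 and 46.7 CPM in CIN 4, 5 and 6, against 47.2, 59.5 and 51.4 CPM in ctrl (−0.29 ± 0.14), again without overlap. mRpL49 had 39.8, 23.9 and 30.8 CPM in CIN, against 40.3, 44.3 and 34.9 CPM in ctrl (−0.34 ± 0.20). The lowest per length was mRpL55, a protein required for viability in Drosophila, with 11.4, 10.97 and 9.29 CPM in CIN, against 12.4, 11.4 and 10.3 CPM in ctrl (−0.10 ± 0.18). mRpL47 was nearest to 0, with 34.3, 28.5 and 35.2 CPM in CIN, against 32.01, 33.8 and 35.5 CPM in ctrl (−0.05 ± 0.13).

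**Figure D2:**
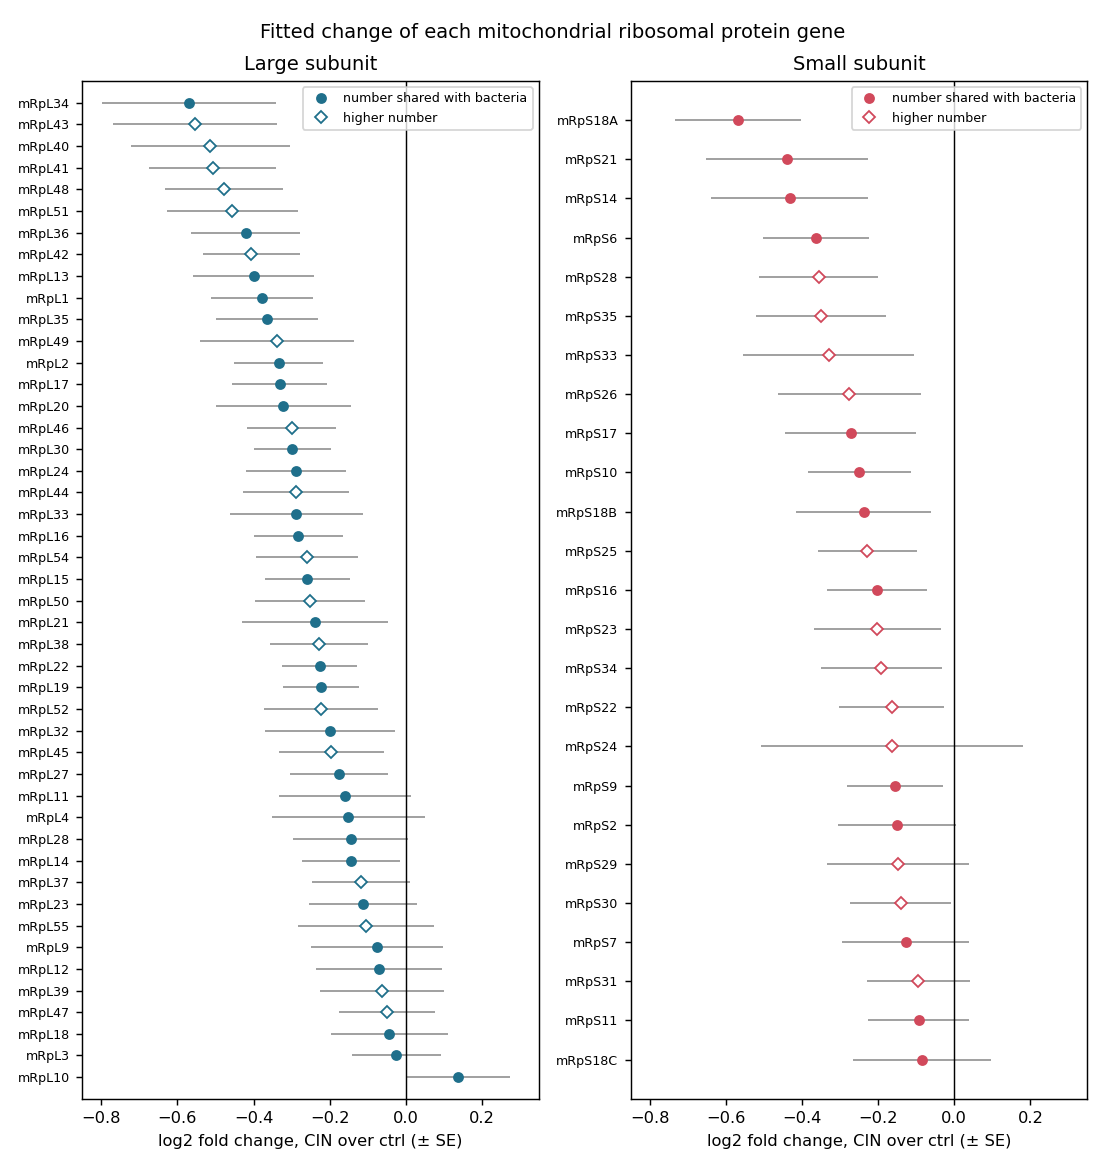
Fitted log2 fold change of each member, CIN over ctrl, with its SE as a horizontal line, ordered by size within the large subunit (left) and the small subunit (right). Filled circles are proteins with bacterial numbers and open diamonds are proteins with higher numbers. All points but mRpL10 lie left of 0, and the values of both subunits run down to −0.57.

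All 25 small-subunit members had a negative log2 fold change, from −0.57 to −0.09, but few had groups that were apart. The 13 proteins with bacterial numbers had a median of −0.24, with 2 (15.4%) at an unadjusted p under 0.05, 3 (23.1%) without overlap and 8 (61.5%) lower in all 3 batches. The 12 with higher numbers had a median of −0.20, with 0 at that p, 2 (16.7%) without overlap and 4 (33.3%) lower in all 3 batches. The shares over all tested genes were 3.76%, 8.18% and 18.5%. In the higher-numbered class the first count was not above that background, and 2 and 4 of 12 genes are few to set against it.

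mRpS18A (3R:8561917-8562593) had the lowest p of the whole family, with an edgeR adjusted p of 0.549. It had 20.05, 15.3 and 19.9 CPM in CIN 4, 5 and 6, against 27.2, 30.7 and 24.1 CPM in ctrl 4, 5 and 6. The means were 18.4 ± 2.69 CPM in CIN and 27.3 ± 3.28 CPM in ctrl (SD, n = 3 each), with a log2 fold change of −0.57 ± 0.17. It is 1 of 3 paralogs of bacterial S18 in animal mitochondria, and in mammalian structures its homologue lies in the large subunit.

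Its paralogs stood nearer to 0. mRpS18B had 23.6, 17.7 and 24.66 CPM in CIN 4, 5 and 6, against 26.2, 22.5 and 29.1 CPM in ctrl (−0.24 ± 0.18, edgeR adjusted p 0.749). mRpS18C had 12.6, 11.4 and 12.2 CPM in CIN, against 11.1, 12.1 and 15.1 CPM in ctrl (−0.09 ± 0.18, edgeR adjusted p 0.919). Both overlapped between the groups, and the difference between the paralogs was not tested.

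mRpS6, whose bacterial counterpart binds beside S18 on the platform of the small subunit, had 21.4, 19.9 and 21.8 CPM in CIN 4, 5 and 6, against 25.05, 31.2 and 24.97 CPM in ctrl. Its log2 fold change was −0.36 ± 0.14 (edgeR adjusted p 0.603), and the groups did not overlap. Besides mRpS18A it was the only small-subunit member at an unadjusted p under 0.05.

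The highest levels per length among small-subunit proteins with bacterial numbers were those of mRpS16 and mRpS7. mRpS16 had 27.6, 21.9 and 24.3 CPM in CIN 4, 5 and 6, against 28.3, 29.7 and 26.9 CPM in ctrl (−0.20 ± 0.13). mRpS7, which binds rRNA in the head of the bacterial subunit, had 47.5, 31.9 and 40.8 CPM in CIN, against 47.7, 39.4 and 44.2 CPM in ctrl (−0.13 ± 0.17). Both overlapped, and the range of the CIN libraries, with CIN 5 lowest, was wider than the difference of the means. mRpS21, the lowest of its class per length, had 11.3, 8.04 and 7.85 CPM in CIN, against 12.8, 13.02 and 11.1 CPM in ctrl (−0.44 ± 0.21), and 48.0% of its exon bases are shared with CG8870.

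mRpS29, the homologue of the GTP-binding protein DAP3, had 38.9, 23.96 and 33.5 CPM in CIN 4, 5 and 6, against 38.3, 33.3 and 35.2 CPM in ctrl (−0.15 ± 0.19), with overlap and CIN 5 lowest.

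Among the other higher numbers, mRpS25 had 27.8, 23.01 and 28.3 CPM in CIN 4, 5 and 6, against 28.9, 33.02 and 30.7 CPM in ctrl (−0.23 ± 0.13), without overlap. mRpS22 had 54.5, 42.6 and 48.7 CPM in CIN, against 52.5, 61.1 and 49.8 CPM in ctrl (−0.16 ± 0.14). mRpS24 had only 5.46, 4.32 and 4.26 CPM in CIN, against 6.63, 3.08 and 6.00 CPM in ctrl (−0.16 ± 0.34), and ctrl 5 was its lowest library. These 3 genes differed by less than 2 SE.

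**Figure D3:**
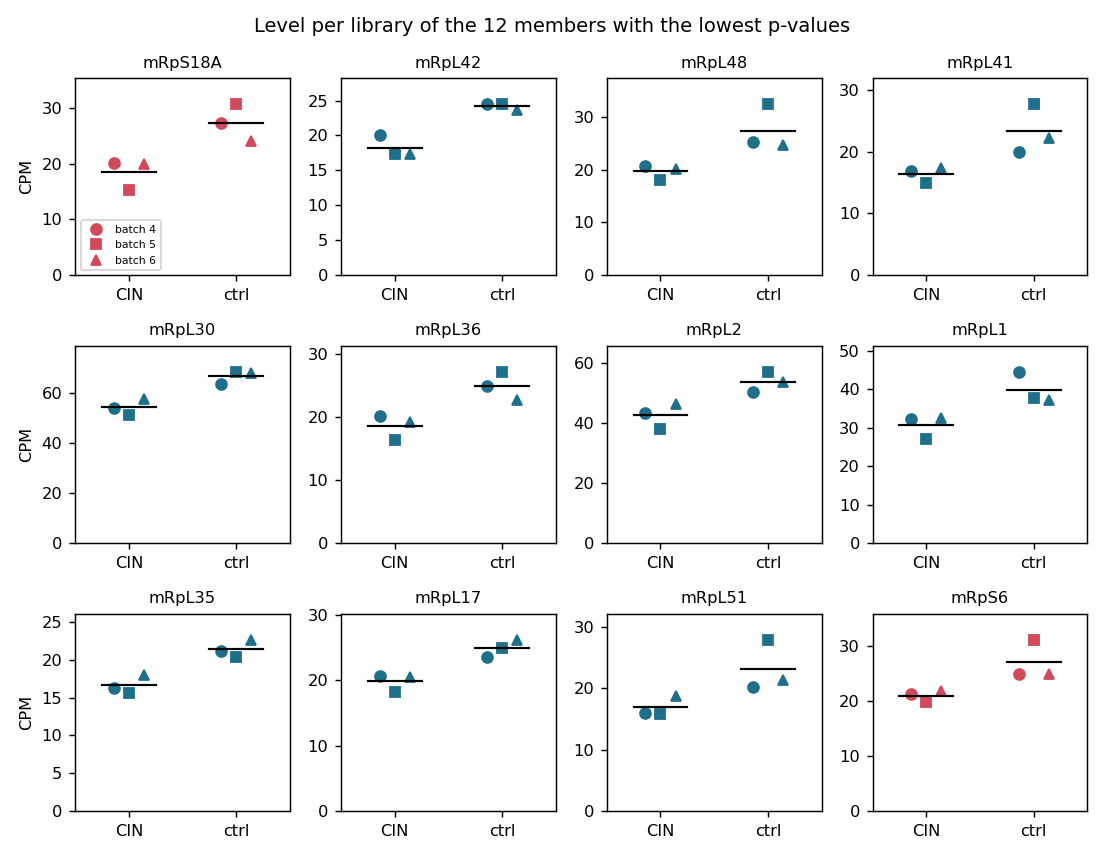
Level in CPM of the 12 members with the lowest unadjusted p-values in each library, by genotype (CIN left, ctrl right), with marker shapes for batches and a black bar for the mean of 3 libraries. Blue marks the large and red the small subunit. In each panel the 3 CIN points lie below the 3 ctrl points. The members were chosen by p in these same libraries, which favours such panels. Over the family 28 of 71 members (39.4%) were so separated, against 8.18% of all tested genes.

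The subunits were then set against each other. The median log2 fold change was −0.26 for the large subunit and −0.20 for the small subunit, a difference of −0.05, against a spread of 0.105 (SD) of the same difference between the 3 batches. The summed large subunit reached 1385, 1172 and 1325 CPM in CIN 4, 5 and 6, against 1507, 1585 and 1490 CPM in ctrl. The summed small subunit reached 721, 555 and 677 CPM in CIN, against 754, 790 and 737 CPM in ctrl. The mean sums differed by −15.3% for the large subunit (1294 ± 110.1 CPM in CIN, 1527 ± 50.5 CPM in ctrl) and by −14.4% for the small one (651 ± 86.1 CPM in CIN, 759.98 ± 27.0 CPM in ctrl).

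The ratio of large to small summed CPM was 1.92, 2.11 and 1.96 in CIN 4, 5 and 6, against 2.00, 2.01 and 2.02 in ctrl 4, 5 and 6. The mean ratio was 1.998 ± 0.102 in CIN and 2.01 ± 0.0120 in ctrl (SD, n = 3 each). The mean ratios differed by less than the spread between libraries. CIN 4 and CIN 6 lay below all ctrl libraries, and only CIN 5 lay above them, so the likeness of the means rested on CIN 5. The difference in ratio was not tested. Counts of members apart were higher in the large subunit, with 16 of 46 at an unadjusted p under 0.05 and 23 of 46 without overlap, than in the small subunit, with 2 of 25 and 5 of 25. The shares over all tested genes were 3.76% and 8.18%. The difference of these counts between the subunits was not tested.

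The spread between libraries was described by the coefficient of variation. Over the small-subunit members the median coefficient of variation was 14.6% in CIN and 9.56% in ctrl, and over the large-subunit members it was 10.06% in CIN and 10.1% in ctrl. Over all tested genes it was 16.5% in CIN and 14.3% in ctrl. The median biological coefficient of variation in the edgeR fit was 0.185 for the members and 0.215 for all tested genes.

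Batch 5 held the largest differences. The median log2 difference of the members, CIN minus ctrl, was −0.11 in batch 4, −0.46 in batch 5 and −0.18 in batch 6, with 47, 68 and 64 of the 71 members lower in CIN. For the large subunit the medians were −0.17, −0.43 and −0.19 in batches 4, 5 and 6, and for the small subunit −0.02, −0.48 and −0.17. In batch 4 the summed large subunit differed by −8.08% and the small one by −4.41%, in batch 5 by −26.1% and −29.8%, and in batch 6 by −11.1% and −8.12%. On the same scale the sum over all tested genes differed by 2.90%, −8.41% and −2.18% in batches 4, 5 and 6.

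**Figure D4:**
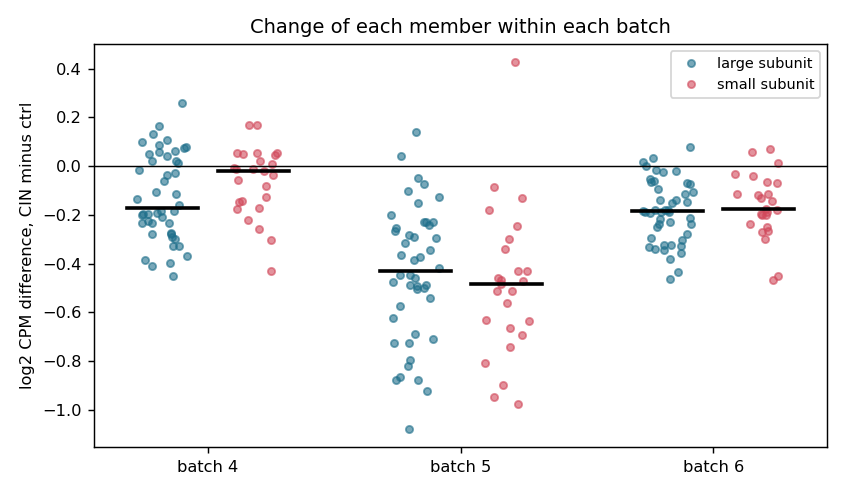
Log2 CPM difference of each member, CIN minus ctrl, within batches 4, 5 and 6, with large-subunit genes left and small-subunit genes right in each batch and a black bar at each median. The medians in batch 5 are −0.43 for the large and −0.48 for the small subunit, and the small-subunit median in batch 4 is −0.02.

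CIN 5 was the lowest of the 6 libraries in 57 of the 71 members (80.3%), against 24.5% of all tested genes, and ctrl 5 the highest in 37 members (52.1%), against 19.8% of all tested genes. Without CIN 5, the median log2 fold change was −0.21 for the large and −0.11 for the small subunit. Without both CIN 5 and ctrl 5 the medians were −0.19 and −0.09. Without ctrl 5, 6 members were lower at an unadjusted p under 0.05 in edgeR, where 2.65% of all tested genes were, and 69 were negative. Without both ctrl 4 and CIN 5, the libraries with the lowest ring gland markers, 59 members were negative. Of the 71 members 1 was lower at that p, where 2.86% of all tested genes were.

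Transcript length moved with the fitted difference across all tested genes, though not in every batch. Members are short, with a median of 783 bases of merged exon, against 2104 bases over all tested genes with a length. Among tested genes under 1 kb that are no member, 67.6% of 1587 had a negative log2 fold change, with a median of −0.16, 6.11% at an unadjusted p under 0.05 in that direction and 13.3% without overlap. Of the 50 members under 1 kb, 49 were negative, with a median of −0.26, 28.0% at that p and 42.0% without overlap. Between 1 and 2 kb, 59.4% of 3090 other genes were negative, with a median of −0.06, and all 20 members were negative, with a median of −0.21. Other genes of 2 kb and over had a median of 0.08.

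In short genes that are no member, too, batch 5 had the most negative median. The other genes under 1 kb had medians of 0.02, −0.32 and −0.10 in batches 4, 5 and 6, and the members under 1 kb −0.07, −0.49 and −0.19. Other genes of 2 kb and over had medians of −0.006, 0.15 and 0.04, so the length classes hardly differed in batch 4. Across the 71 members, the log2 fold change and the log2 length had a Pearson r of 0.359 and a Spearman rho of 0.330, all taken from the same 6 libraries. Over 10016 tested genes the values were 0.156 and 0.303. The part of length in the members' difference was not tested.

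**Figure D5:**
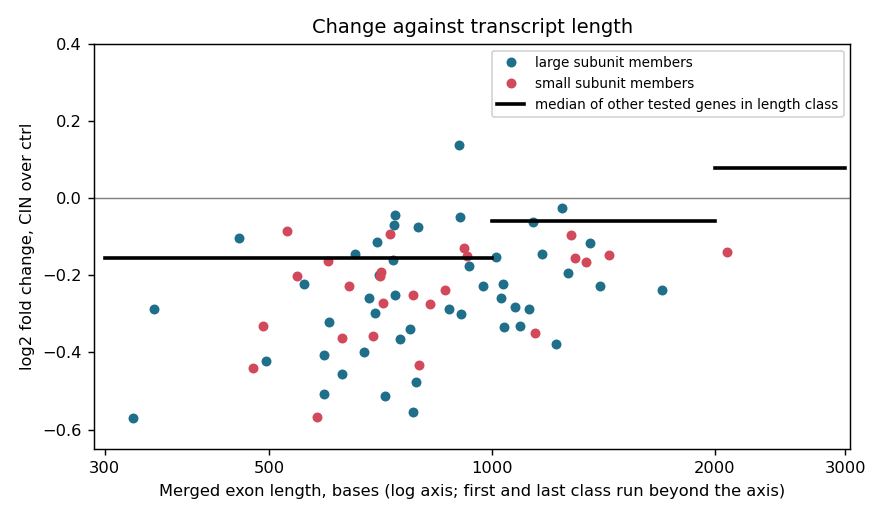
Log2 fold change, CIN over ctrl, of each member against its merged exon length in bases on a log axis, in blue for the large and red for the small subunit. Black bars are medians of the tested genes that are no member, at −0.16 under 1 kb, −0.06 from 1 to 2 kb and 0.08 from 2 kb. Most members lie below the bar of their length class.

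The negative sign was found on every chromosome arm and with or without overlapping genes. Of the 71 genes, 41 share exon bases with another counted gene, 39 of them on the opposite strand only. The 30 members that share none were all negative, with a median of −0.24. Of these, 6 (20%) were lower at an unadjusted p under 0.05 and 11 (36.7%) were without overlap, against 3.76% and 8.18% of all tested genes. The 6 members with over 20% of their exon bases shared (mRpL13, mRpL48, mRpS9, mRpS14, mRpS21 and mRpS24) had a median of −0.42. By chromosome arm the medians ran from −0.27 on 2R (11 members) and 3L (16 members) to −0.19 on 2L (12 members), with −0.23 on X (11 members) and −0.20 on 3R (21 members).

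Mitochondrial ribosomal proteins that carry another name were examined beside the members. tko, the counterpart of bacterial S12 whose mutants are sensitive to mechanical shock, had 24.3, 25.3 and 23.3 CPM in CIN 4, 5 and 6, against 28.4, 37.4 and 29.6 CPM in ctrl (−0.39 ± 0.14, edgeR adjusted p 0.603), without overlap. bonsai, the counterpart of S15, had 45.96, 29.2 and 41.03 CPM in CIN, against 43.2, 50.5 and 45.5 CPM in ctrl (−0.26 ± 0.18). CRIF, the homologue of a mammalian large-subunit protein and chosen after its values were seen, had 40.3, 34.9 and 41.7 CPM in CIN, against 37.5, 44.2 and 40.2 CPM in ctrl (−0.06 ± 0.12). Its groups overlapped, CIN was higher in batches 4 and 6, and of the 3 genes tko was the 1 with groups apart.

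The rRNAs of the mitochondrial ribosome were uneven in these poly(A) libraries. mt:lrRNA, the large-subunit rRNA, had 40545, 39095 and 34324 CPM in CIN 4, 5 and 6, against 42752, 80593 and 47366 CPM in ctrl (−0.58 ± 0.25, edgeR adjusted p 0.627). The groups did not overlap, and ctrl 5 was far above the others. mt:srRNA, the small-subunit rRNA, had 31.05, 62.5 and 24.1 CPM in CIN, against 24.2, 83.2 and 35.8 CPM in ctrl (−0.28 ± 0.52). Its groups overlapped, and its sign turned to 0.38 without ctrl 5. Selection for poly(A) bears on both levels, so they do not measure rRNA content.

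The cytosolic ribosomal proteins, which make up the ribosome outside the organelle, were counted in the same way. Of 85 tested, 82 had a negative log2 fold change, with a median of −0.16. Of the 85, 1 (1.18%) was lower in CIN at an unadjusted p under 0.05, 1 had all CIN libraries below all ctrl libraries and 12 (14.1%) were lower in all 3 batches. The shares over all tested genes were 3.76%, 8.18% and 18.5%, all above these. Their medians were 0.05, −0.51 and −0.04 in batches 4, 5 and 6, and CIN 5 was the lowest library in 79 of them. The medians of the mitochondrial members, given above, were −0.11, −0.46 and −0.18 in the same batches. These differences between the families were not tested.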

How the data were processed

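RNA was measured in 6 libraries, 3 per genotype. The authors deposited raw counts per gene, not normalized. Trim Galore, STAR 2.7.10a and featureCounts on dm6 are named in the submitters' processing notes; the sources used here give neither the strand setting nor the handling of multi-mapping reads, and the library kit does not mark strand. Gene symbols, coordinates and merged exon lengths came from an Ensembl annotation of BDGP6. CPM used TMM-scaled library sizes and were computed from the deposited counts.

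Genotypes were compared in R 4.3.3 with edgeR 4.0.16 (filterByExpr, TMM, quasi-likelihood F test, two-sided, Benjamini-Hochberg over all tested genes, threshold 0.05), without a batch term; SE is the log2 fold change divided by the square root of F. Alternatives used DESeq2 1.42.0 and limma 3.58.1, other scalings and filters, and left-out libraries. The test was checked on simulated data. For 3 libraries against 3 the smallest exact permutation p is 0.1, so no such test was run. Replicates came from different days with a batch number in the labels, so the numbers pair the libraries; deviations of same-numbered libraries correlated at 0.0382, −0.0623 and 0.175 in batches 4, 5 and 6 over 10074 genes.

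Named members are the 2 highest and 1 lowest per kb in each class, the 4 most positive and 4 most negative log2 fold changes, the 12 lowest p-values, the mRpS18 paralogs, and tko, bonsai, Dap3 (listed as mRpS29), the mitochondrial rRNAs and Bub3. The cytosolic ribosomal proteins, marker lists, and translation and ribosome assembly factors are described mainly by counts and medians. So are mitochondrial tRNA synthetases with related genes, genes of mitochondrial transcription, RNA and DNA replication, and mRNAs of the mitochondrial genome. Members and lists were chosen with earlier results of these data known. The spread behind each p-value is that between pooled brains of different days.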

Additional observations from a re-analysis of the deposited data

How the results depend on the processing

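Members called stayed at 0 under all 16 alternatives run, with lowest adjusted p-values (edgeR, or DESeq2 and limma-voom where these were the alternative) from 0.192 to 0.858. The median log2 fold change kept its sign, from −0.30 to −0.19 for the large and from −0.30 to −0.09 for the small subunit, and the difference between the subunits ran from −0.11 to −0.01. The summed difference ran from −18.3% to −9.43% for the large and from −19.1% to −6.10% for the small subunit. Over all tested genes, 10 calls became 107 with DESeq2 and 0 with the batch as replicate block (lowest adjusted p 0.0557), 0 without both CIN 5 and ctrl 5 (0.208), and 1 to 3 when single libraries were left out. With the replicate block the medians were −0.26 for the large and −0.21 for the small subunit, and no call of a member was changed. In that edgeR fit 14 members were lower at an unadjusted p under 0.05, where 3.98% of all tested genes were. Bub3 was called by DESeq2 (adjusted p 0.00364). Without scaling, 12 members were lower at an unadjusted p under 0.05 in edgeR, where 2.58% of all tested genes were. In that setting mRpL3 (0.013) and mRpL18 (0.00085) turned positive. Without both ctrl 4 and CIN 5, mRpL12 (0.13), mRpS7 (0.075), mRpS24 (0.095), mRpL3 (0.024) and mRpL47 (0.00018) did. Without both CIN 5 and ctrl 5, mRpL12 (0.044), mRpS22 (0.014), mRpL3 (0.075), mRpL18 (0.024) and mRpL47 (0.042) did. Leaving out single libraries gave −0.20 to 0.079 for mRpL12, −0.27 to 0.0081 for mRpS7, −0.43 to 0.040 for mRpS24, −0.10 to 0.053 for mRpL3, −0.12 to 0.048 for mRpL18, −0.12 to 0.037 for mRpL47, −0.18 to 0.054 for mRpS18C and −0.80 to 0.38 for mt:srRNA. The cause was not tested. Leaving out both libraries of batch 5 and counting mRpS18A and mRpS30 with the large subunit were chosen after seeing the data; the second left the medians at −0.26 and −0.20. The search of promoters for motifs was not run. Depth limits mRpS24 most, with 76 to 165 counts per library.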

Other observations

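Genes listed as serving the mitochondrial ribosome, where found by symbol among the counted genes, were mostly negative too. Listed genes not found were left out. Of 19 listed translation factors 12 were found. Of these 12, 10 had a negative log2 fold change in CIN against ctrl, with a median of −0.15. At an unadjusted p under 0.05 in edgeR there were 0, where 3.76% of all tested genes were lower. Of 24 listed assembly factors only 7 were found. All 7 were negative, with a median of −0.24, and 1 was at that p (CG15027, −0.47 ± 0.15). mEFTu1, the factor that brings aminoacyl-tRNA to the ribosome, had 224, 131 and 200.2 CPM in CIN 4, 5 and 6, against 204, 201 and 210.0 CPM in ctrl 4, 5 and 6 (−0.15 ± 0.20). Only CIN 5 was far from the other libraries. mEFTs, its exchange factor, had 67.6, 63.3 and 69.5 CPM in CIN, against 84.999, 71.4 and 71.3 CPM in ctrl (−0.18 ± 0.12). Of 23 listed mitochondrial tRNA synthetases and related genes 18 were found, and 12 of these were negative, with a median of −0.08. GatA, GatB and Slimp, which are no synthetases, were counted among the 18. Of 22 listed genes of mitochondrial transcription, RNA handling and DNA replication 16 were found. Among these 16 were mtDNA-helicase, PolG1 and mtSSB of DNA replication, and 14 of the 16 were negative, with a median of −0.11.

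The mRNAs of the mitochondrial genome, which this ribosome translates, were negative in 12 of 13 cases, with a median of −0.32 and medians of 0.20, −0.90 and −0.33 in batches 4, 5 and 6. ctrl 5 was the highest library in 12 of the 13. mt:ND6, a subunit of complex I, had 23.4, 21.9 and 21.1 CPM in CIN 4, 5 and 6, against 33.01, 60.4 and 32.1 CPM in ctrl (−0.92 ± 0.26, edgeR adjusted p 0.514). mt:CoI, a subunit of cytochrome oxidase, had 7437, 6755 and 6157 CPM in CIN, against 5693, 7974 and 6877 CPM in ctrl (−0.01 ± 0.16). mt:ATPase8 was the 1 mRNA with a positive value, 0.39 ± 0.26.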
